A study of Mus musculus with 8 samples.

Results

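The genes described here are the cyclins and inhibitors that govern the G1 phase in mouse embryonic stem cells (ESCs), taken by their symbols. They are the D cyclin genes Ccnd1, Ccnd2 and Ccnd3, the E cyclin genes Ccne1 and Ccne2, the inhibitor genes Cdkn1b, Cdkn2a and Cdkn2b, the retinoblastoma gene Rb1 and the transcription factor gene E2f1. All 10 symbols were found among the 55418 genes of each deposited count table. RNA-seq was performed on 8 libraries in 4 groups of 2. The study asked what loss of single members of the HIRA complex, a chaperone that deposits histone variant H3.3, does to transcription in ESCs.

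All groups were E14 ESCs, a feeder-free mouse line of strain 12910la in the labels, grown on gelatin in serum with leukaemia inhibitory factor. The control group is labelled wild type, while the methods name an shRNA against luciferase for control cells. The other groups, Hira_KD, Ubn1_KD and Ubn2_KD, carry a knockdown of Hira, Ubn1 or Ubn2, the genes of the chaperone's central subunit and of its ubinuclein subunits. The label protocol gives 1000 ng of pSuper puro plasmid, followed from 24 h by 3 days of puromycin at 1 ug/ml. The cells were thus a selected population after transient transfection and not a clone, and the hairpin used for a library is not given in the labels. Nothing says that the libraries of a group came from separate cultures, so p-values measure only the spread between these libraries.

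Cyclins of the D type bind the kinases CDK4 and CDK6, and cyclins of the E type bind CDK2. Both kinds of complex phosphorylate the pocket protein Rb, which otherwise holds E2F factors inactive, and free E2F turns on genes needed for DNA replication. The p27 protein, encoded by Cdkn1b, restrains cyclin E complexes, and the INK4 proteins of the Cdkn2a and Cdkn2b genes restrain CDK4 and CDK6. ESCs are known for a short G1 phase, with high cyclin E and with INK4 genes kept low.

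Total counts per library ran from 19710040 to 32706053. Each targeted gene was lower in its own depletion, at log2 fold changes of -3.22 for Hira, -1.03 for Ubn1 and -0.90 for Ubn2, so that the Ubn1 and Ubn2 transcripts remained at 0.490 and 0.538 of their control level. The ESC marker genes were high in every library, with summed values of 6080 to 7478 CPM, reads scaled to library size, over 10 genes. All CPM values were scaled by edgeR's TMM factors. A gene was called when its adjusted p, from the quasi-likelihood test of edgeR and adjusted by the Benjamini-Hochberg method over all genes tested, was under 0.05 and its fold change over 1.5. With groups of 2, the smallest two-sided p of an exact permutation test is 0.3333, so every p given here comes from that fit across all genes. After Hira depletion Ubn1 (1.39-fold, adjusted p = 0.000464 in edgeR) and Ubn2 (1.19-fold, 0.0231) were higher. After Ubn2 depletion Hira was higher (1.14-fold, 0.0424), and all 3 were within 1.5-fold. Ubn1 after Ubn2 depletion, and Hira and Ubn2 after Ubn1 depletion, did not pass. By qPCR, the paper reported no effect of a depletion on RNA of the other members.

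After Hira depletion Rb1, Cdkn1b and Cdkn2b, which encode restraints on entry into S phase, were called higher, while E2f1, Ccne1 and Ccnd1 were lower and Ccne2 higher at the adjusted p but within 1.5-fold. Thus 3 of the 10 genes were called, all higher, beside 16.2% of the 19035 genes tested in either direction and 10.8% higher. After Ubn2 depletion Ccnd1, Ccnd2, Cdkn2b and Rb1 were called higher and none was called lower, 4 of the 10 genes beside 18.3% of 18219 genes tested and 9.59% higher. After Ubn1 depletion 0 of the 10 genes were called by edgeR, beside 3.09% of 18373 and 1.53% higher. Only Rb1 had an unadjusted p under 0.05 there, and DESeq2's Wald test also called 0. At the adjusted p alone, whatever the fold, 7 of the 10 genes passed after Hira depletion, 0 after Ubn1 depletion and 5 after Ubn2 depletion, beside 34.9%, 7.76% and 39.1% of all genes tested. In RNA from whole cultures, fewer cells of a type and less RNA per cell cannot be told apart.

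The libraries of a depletion lay wholly apart from the control libraries for 7 of the 10 genes after Hira depletion, 5 after Ubn1 depletion and 9 after Ubn2 depletion. Over all genes tested the same held for 67.1%, 51.1% and 69.9%, so that 7 and 5 are near the background. Between depletions, 3 of the 10 genes were called when Hira was set against Ubn2 depletion (17.6% of all genes), 2 when Hira was set against Ubn1 depletion (12.7%) and 3 when Ubn2 was set against Ubn1 depletion (8.7%). At the adjusted p alone these counts were 5 (35.8% of all genes), 5 (24.3%) and 4 (16.6%). All 10 genes passed the filter on low counts in each of the 6 comparisons. The 3 comparisons with control share the same control libraries, and only the comparisons between depletions test whether a response differed.

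**Figure D1:**
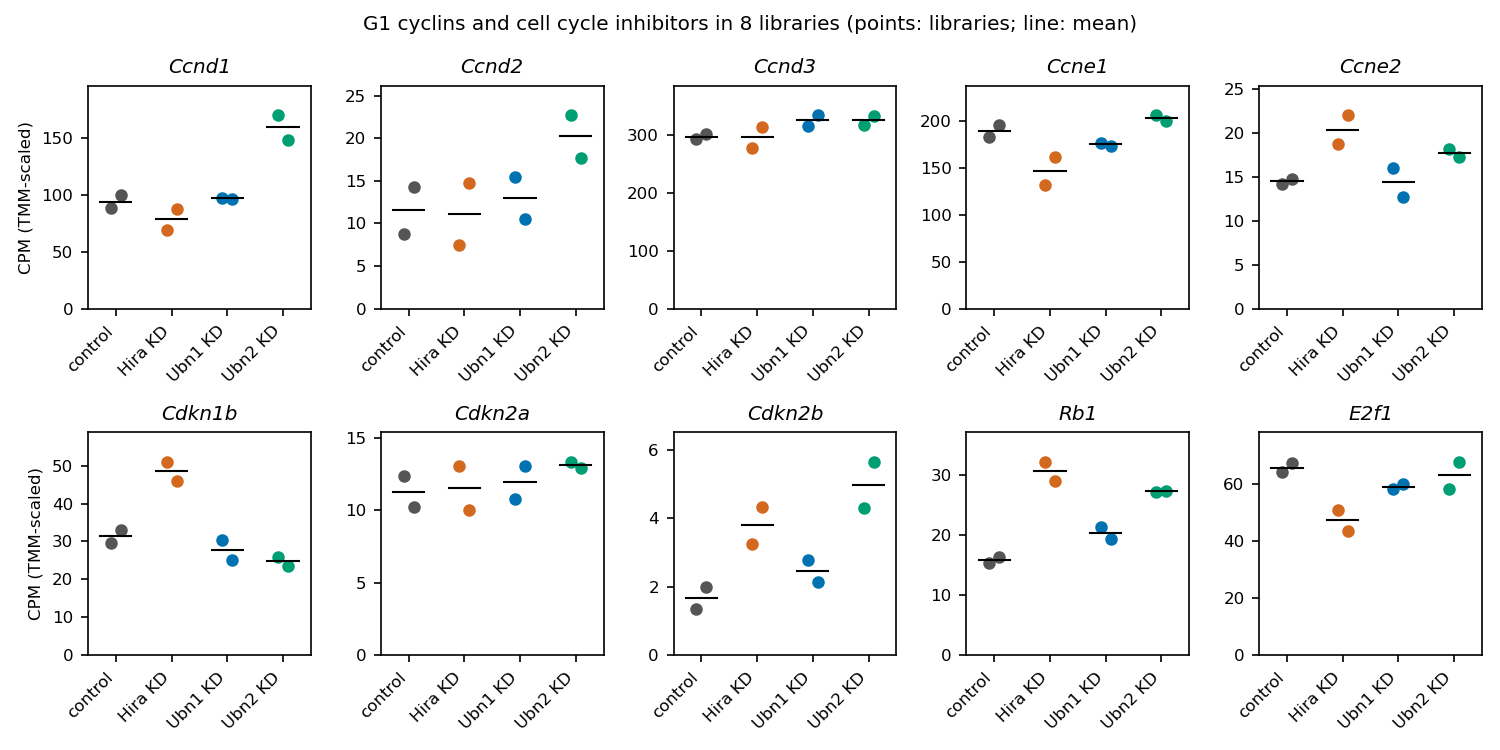
CPM of each of the 10 genes in the 8 libraries, on linear axes that start at 0. Points are libraries and lines are group means. Ccnd1 stood at 148 and 169.9 CPM in the Ubn2-depleted libraries and at 69.4 to 99.4 CPM in the other 6, while Cdkn1b stood highest in both Hira-depleted libraries.

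**Figure D2:**
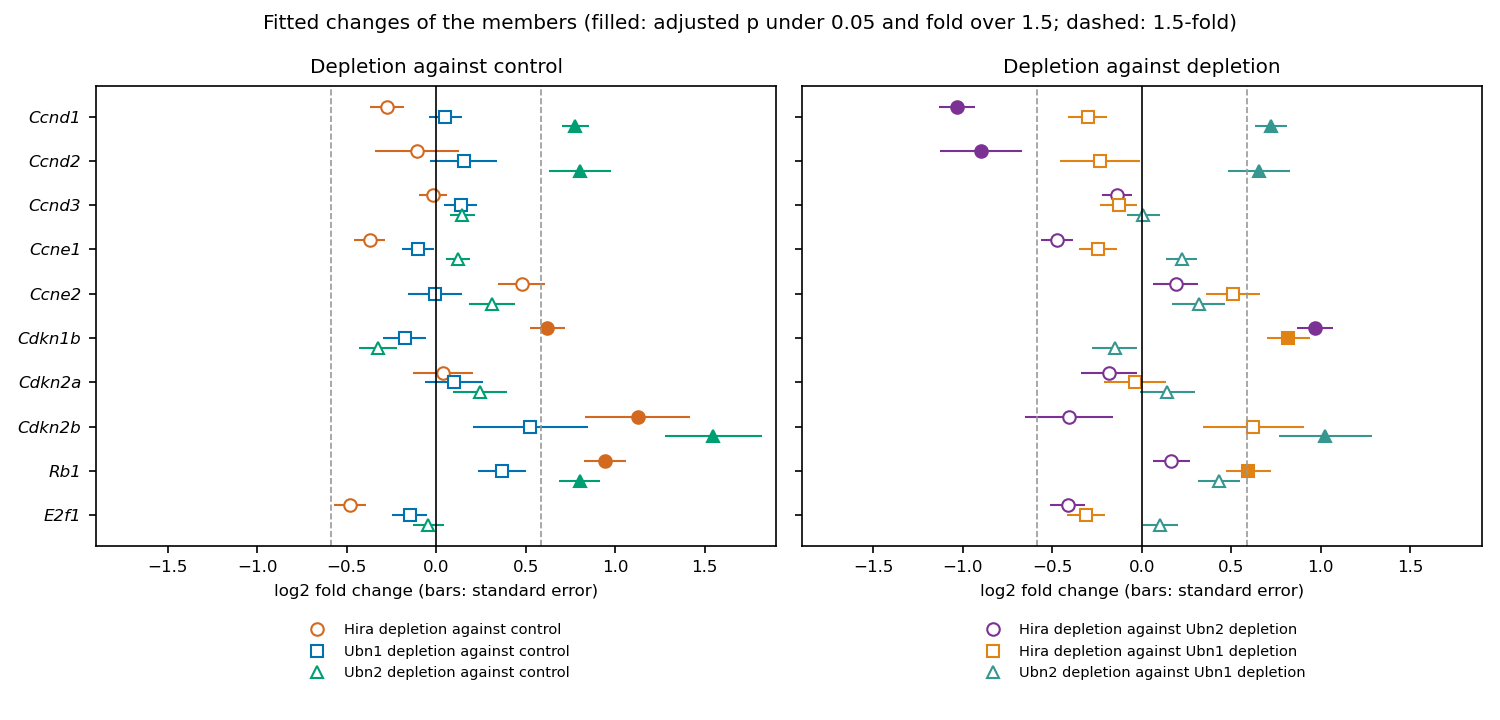
Fitted log2 fold changes of the 10 genes in the 6 comparisons, with bars of 1 standard error. Filled symbols passed an adjusted p under 0.05 and a fold over 1.5, open symbols did not, and dashed lines mark 1.5-fold. Symbols for Ubn1 depletion against control are all open.

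To compare the genes with each other, CPM was divided by the length of their exons, merged over all annotated transcripts. That length was 8775 bases for Ccnd3, with 21 transcripts, and 2662 for Ccne1, with 5, so the order depends on it. In plain CPM the control mean of Ccnd3 was above that of Ccne1, at 297 and 189 CPM. In control libraries Ccne1 stood highest at 71.0 CPM per kb, followed by Ccnd3 at 33.8, E2f1 at 20.8 and Ccnd1 at 19.9 CPM per kb. Cdkn2a followed at 9.61, Cdkn1b at 6.89, Ccne2 at 4.13 and Rb1 at 2.63 CPM per kb. Ccnd2 and Cdkn2b were lowest, at 1.23 and 1.21 CPM per kb. The control libraries of neighbours in this order did not overlap, except those of E2f1 and Ccnd1 and those of Ccnd2 and Cdkn2b. Read per kb at the level of RNA, these ESCs thus held much cyclin E1 and cyclin D3 and very little of Ccnd2, Cdkn2b and Rb1.

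Ccnd1 encodes cyclin D1, the D cyclin most responsive to growth factor signalling, and lies at chr7:144929931-144939925 on the minus strand of GRCm38. It had 88.5 and 99.4 CPM in the controls, 69.4 and 87.3 in Hira-depleted libraries, 97.4 and 96.4 in Ubn1-depleted libraries, and 169.9 and 148 CPM in Ubn2-depleted libraries. Both Ubn2-depleted libraries stood above all others, and both Hira-depleted libraries below the controls, the nearest by a narrow margin. After Ubn2 depletion Ccnd1 rose 1.71-fold, a log2 fold change of 0.78 (SE, the standard error, 0.076, adjusted p = 7.41e-08 in edgeR's test), the smallest adjusted p of the 10 genes in any comparison with control. After Hira depletion its log2 fold change was -0.28 (SE 0.095, adjusted p = 0.0286 in edgeR), within 1.5-fold. That p reached 0.164 without the second control library and 0.433 without the first Hira library, where the log2 fold change was -0.11, while without the second Hira library the log2 fold change was -0.46, and the alternatives with all libraries gave 0.000666 to 0.0645.

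The responses of Ccnd1 to Hira and Ubn2 depletion differed. Set directly against each other, Hira-depleted cells were below Ubn2-depleted cells, with a log2 fold change of -1.03 (SE 0.10, adjusted p = 4.1e-06 in edgeR's test). Ubn2-depleted cells also stood above Ubn1-depleted cells, by a log2 fold change of 0.72 (SE 0.089, adjusted p = 3.4e-05). Between Hira and Ubn1 depletion the value was -0.30 (SE 0.11, adjusted p = 0.0392 in edgeR), within 1.5-fold. It was -0.14 without the first Hira library (adjusted p = 0.600 in edgeR) and -0.48 without the second, and its adjusted p ran from 0.0193 to 0.0561 over the alternatives with all libraries, the highest in DESeq2. Exons of Ccnd1 share 1100 bases, 23.4% of its exon length, with LTO1 on the other strand, a gene of an adaptor needed for ribosome assembly. LTO1 had 41.4 and 43.5 CPM in control libraries and 69.3 and 70.9 CPM after Ubn2 depletion, a log2 fold change of 0.74 (adjusted p = 4.5e-07 in edgeR). The strand setting of the counting is not stated, so reads of the shared stretch cannot be told apart, and the effect of the overlap on the value of Ccnd1 was not tested.

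Ccnd2, the cyclin D2 gene at chr6:127125162-127152193, was the least abundant D cyclin and the least even between replicates. Its values were 8.81 and 14.3 CPM in the controls, 7.51 and 14.8 in Hira-depleted libraries, 15.4 and 10.5 in Ubn1-depleted libraries, and 22.7 and 17.7 CPM in Ubn2-depleted libraries. The Ubn2-depleted libraries stood above every other library, whereas the other groups overlapped. Ccnd2 rose 1.74-fold after Ubn2 depletion, a log2 fold change of 0.80 (SE 0.17, adjusted p = 0.000846 in edgeR's test). Without the first control library the log2 fold change was 0.52, under 1.5-fold, and without the second it was 1.21.

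After Hira depletion the log2 fold change of Ccnd2 was -0.11 (SE 0.24, adjusted p = 0.765 in edgeR), and its sign depended on single libraries. It was -0.66 and called without the second Hira library, 0.33 without the first and 0.29 without the second control library. In the direct comparison Ccnd2 was lower in Hira-depleted than in Ubn2-depleted cells, with a log2 fold change of -0.90 (adjusted p = 0.00665 in edgeR). This call was lost in DESeq2 at an adjusted p of 0.204, where the other alternatives with all libraries went down to 2.81e-08, and without the first Hira library, where the log2 fold change was -0.46, while without the second it was -1.44. Ubn2-depleted cells exceeded Ubn1-depleted cells by a log2 fold change of 0.65 (adjusted p = 0.0161 in edgeR), a call that was lost in fits of all 8 libraries and without either the second Ubn1 library (0.39) or the first Ubn2 library (0.46).

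Ccnd3 encodes cyclin D3 and lies at chr17:47505051-47599691. It was counted at 292 and 302 CPM in the controls, 277 and 314 in Hira-depleted libraries, 315 and 334 in Ubn1-depleted libraries, and 317 and 332 CPM in Ubn2-depleted libraries. No depletion gave a call. The fitted log2 value stood at -0.02 after Hira depletion (SE 0.078, adjusted p = 0.900 in edgeR), 0.14 after Ubn1 depletion and 0.15 after Ubn2 depletion (SE 0.070, adjusted p = 0.101). The direct comparisons of depletions gave -0.14, -0.13 and 0.01 for Hira against Ubn2, Hira against Ubn1 and Ubn2 against Ubn1 (adjusted p = 0.205, 0.393 and 0.966 in edgeR). Ccnd3 shares 361 exon bases, 4.11% of its exon length, with Bysl on the other strand, which was higher after Ubn2 depletion at the adjusted p (0.41).

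Summed over the 3 genes, D cyclin RNA stood at 55.0 ± 2.80 CPM per kb in the controls, 51.5 ± 6.24 with Hira depleted, 59.0 ± 0.974 with Ubn1 depleted and 72.9 ± 2.45 CPM per kb with Ubn2 depleted (SD, n = 2 each). Ccnd3 made up 61.5% ± 1.76 of this sum in controls and 50.8% ± 3.34 after Ubn2 depletion. The share of Ccnd1 was 36.2% ± 1.12 in controls, 32.2% ± 1.33 after Hira depletion, 34.9% ± 0.825 after Ubn1 depletion and 46.3% ± 2.92 after Ubn2 depletion. Ccnd2 held between 2.22% and 2.94% of the sum in the 4 group means. These sums and shares depend on the exon lengths used, are a description and carry no test.

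**Figure D3:**
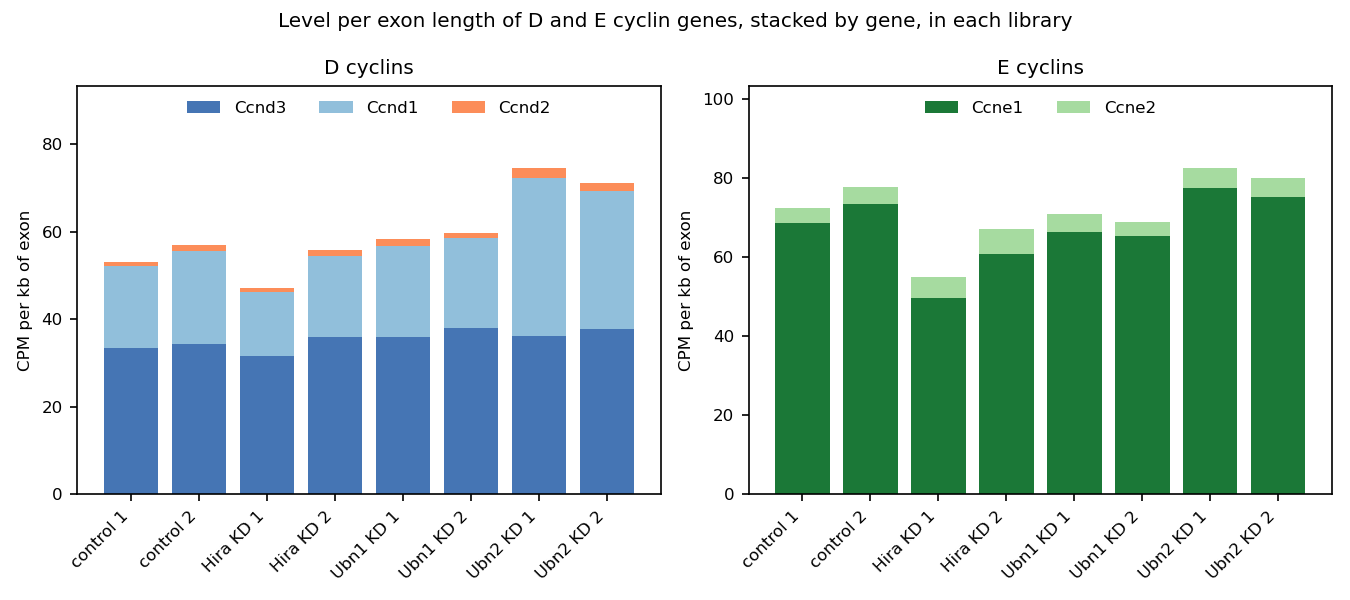
Level per kb of exon of the D cyclin genes (left) and the E cyclin genes (right), stacked by gene, in each of the 8 libraries, with axes that start at 0. The Ccnd1 layer is thickest in both Ubn2-depleted libraries, and the Ccne1 layer is thinnest in both Hira-depleted libraries.

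Ccne1, the cyclin E1 gene at chr7:38097984-38107534, was the most abundant of the 10 genes per kb. It had 183 and 196 CPM in the controls, 132 and 162 in Hira-depleted libraries, 177 and 174 in Ubn1-depleted libraries, and 206 and 200.4 CPM in Ubn2-depleted libraries. The Hira-depleted libraries stood below every other library. The log2 fold change after Hira depletion was -0.37 (SE 0.087, adjusted p = 0.00226 in edgeR's test), a value past the adjusted p but within 1.5-fold, and it ranged from -0.53 to -0.23 as single libraries were left out, -0.23 being the value without the first Hira library. After Ubn1 and Ubn2 depletion it was -0.10 and 0.12 (adjusted p = 0.553 and 0.164 in edgeR). Directly, Ccne1 was lower in Hira-depleted than in Ubn2-depleted cells at a log2 fold change of -0.47 (adjusted p = 0.000975 in edgeR), which became -0.63 and was called without the second Hira library.

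Ccne2, the cyclin E2 gene at chr4:11191351-11204779, moved in the other direction to Ccne1 in Hira-depleted cells. It had 14.1 and 14.8 CPM in the controls, 18.7 and 21.99 in Hira-depleted libraries, 16.0 and 12.6 in Ubn1-depleted libraries, and 18.2 and 17.3 CPM in Ubn2-depleted libraries. Both Hira-depleted and both Ubn2-depleted libraries stood above the controls, and the Ubn1-depleted libraries lay on either side of them. The log2 fold change after Hira depletion was 0.48 (SE 0.13, adjusted p = 0.00759 in edgeR's test), within 1.5-fold. It reached 0.60 and was called without the first Hira library, and it was 0.35 with an adjusted p of 0.0846 without the second, beside 0.000719 to 0.0295 over the alternatives with all libraries. After Ubn2 depletion it was 0.31 (SE 0.13, adjusted p = 0.0579 in edgeR).

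Against Ubn1-depleted cells, Hira-depleted cells had a Ccne2 log2 fold change of 0.51 (adjusted p = 0.0148 in edgeR), within 1.5-fold. It was called without the first Hira library (0.63) and without the first Ubn1 library (0.66), but it was 0.38 without the second Hira library and 0.33 without the second Ubn1 library (adjusted p = 0.155 and 0.149 in edgeR). Over the alternatives with all libraries its adjusted p ran from 0.00915 to 0.0620, the highest in DESeq2. The share of Ccne2 in E cyclin RNA per kb was 5.50% ± 0.0872 in the controls and 9.54% ± 0.252 with Hira depleted (SD, n = 2 each). It was 5.86% ± 0.859 after Ubn1 and 6.22% ± 0.0967 after Ubn2 depletion, and the sum of both E cyclins was 75.2 ± 3.61 CPM per kb in controls and 61.1 ± 8.65 after Hira depletion. Cyclin E RNA therefore remained mostly Ccne1 in every group. Ccne2 shares 609 exon bases, 17.4% of its exon length, with Ints8 on the other strand, whose log2 fold change after Hira depletion was -0.31 (adjusted p = 0.00827 in edgeR), opposite in sign to that of Ccne2.

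Cdkn1b encodes p27, the inhibitor of cyclin E-CDK2 complexes, and lies at chr6:134920401-134925513 on the plus strand. It had 29.6 and 33.2 CPM in the controls, 51.1 and 46.0 in Hira-depleted libraries, 30.4 and 25.0 in Ubn1-depleted libraries, and 26.0 and 23.6 CPM in Ubn2-depleted libraries. The Hira-depleted libraries were above all others, and the Ubn2-depleted libraries were below the controls. Cdkn1b rose 1.54-fold after Hira depletion, with a log2 fold change of 0.62 (SE 0.099, adjusted p = 5.38e-05 in edgeR's test). The value lay close to the 1.5-fold threshold, and it fell under it without the first control library (0.55) and without the first Hira library (0.54).

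After Ubn2 depletion the log2 fold change of Cdkn1b was -0.32 (SE 0.11, adjusted p = 0.0211 in edgeR), past the adjusted p and within 1.5-fold. That adjusted p was 0.0715 in DESeq2, 0.152 without the second control library and 0.144 without the second Ubn2 library, and the alternatives with all libraries began at 0.0128. After Ubn1 depletion the log2 fold change was -0.17 (SE 0.12, adjusted p = 0.424 in edgeR). The difference between depletions was tested directly. Cdkn1b was higher in Hira-depleted than in Ubn2-depleted cells by a log2 fold change of 0.97 (SE 0.10, adjusted p = 6.7e-06 in edgeR) and higher than in Ubn1-depleted cells by 0.82 (SE 0.12, adjusted p = 1.26e-05). Both calls held in every alternative and with each library left out.

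Cdkn2a and Cdkn2b are neighbours on the minus strand of chromosome 4, at chr4:89274471-89294653 and chr4:89306299-89311039, with 11645 bases between them. Cdkn2b encodes the INK4 inhibitor p15, and Cdkn2a encodes both the INK4 inhibitor p16 and, from another first exon, the p53 activator ARF. The annotation has 2 protein-coding transcripts for Cdkn2a, which the deposited table pools in 1 count, so p16 and ARF were not separable here. The locus is a textbook target of Polycomb repression. The 30 bases before each RefSeq start are shown 5′ to 3′ on the gene strand (GRCm38.p6), because the starts of the locus differ in base composition. CG dinucleotides were counted over the 300 bases around each start, and a link between base composition and the calls was not tested.

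Cdkn2b, chr4:89311033-89311062: gggggaggggttagagagcaggcgtggtct
Cdkn2a upstream start, chr4:89294620-89294649: agcaaagatgggccgggggcggcgcgtggg
Cdkn2a downstream start, chr4:89282193-89282222: accatcctcagaggaaggaaggagggaccc

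The upstream start of Cdkn2a held 45 CG dinucleotides, the downstream start 12 and the start of Cdkn2b 18, where the median of all 32851 RefSeq promoters was 7. An exact E2F motif (TTTCCCGC, TTTCGCGC, TTTGCCGC or TTTGGCGC, on either strand) was present in a promoter of 2.605% of all 27025 genes with an entry, of 4.695% of those averaging at least 1 CPM, and of 1 of the 6 members with an entry, at position -99 from the upstream start of Cdkn2a. The 6 were Ccnd3, Ccne1, Cdkn1b, Cdkn2a, Cdkn2b and E2f1. The match is in capitals in the following window.

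Cdkn2a, chr4:89294700-89294729, minus strand: ctctgggaagcTTTCCCGCgcgactgggga

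Cdkn2b was the least abundant of the genes in CPM, with 28 and 63 reads in control libraries and 56 to 112 in the others. It had 1.36 and 2.01 CPM in the controls, 3.25 and 4.35 in Hira-depleted libraries, 2.78 and 2.15 in Ubn1-depleted libraries, and 4.30 and 5.67 CPM in Ubn2-depleted libraries. Every depleted library stood above both controls, those of Ubn1 by the least. Cdkn2b rose 2.18-fold after Hira depletion, a log2 fold change of 1.12 (SE 0.29, adjusted p = 0.00512 in edgeR's test). It rose 2.92-fold after Ubn2 depletion, a log2 fold change of 1.55 (SE 0.27, adjusted p = 0.000109), the largest change of the 10 genes in the comparisons with control. After Ubn1 depletion the log2 fold change was 0.53 (SE 0.32, adjusted p = 0.349 in edgeR).

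With few reads per library the standard error of Cdkn2b was the widest of the group. Both calls held with each library left out, at log2 fold changes of 0.90 to 1.44 after Hira and 1.33 to 1.87 after Ubn2 depletion. The direct difference between Hira and Ubn2 depletion in Cdkn2b did not pass the adjusted p, with a log2 fold change of -0.40 for Hira against Ubn2 (SE 0.25, adjusted p = 0.219 in edgeR). Ubn2-depleted cells were above Ubn1-depleted cells by 1.02 (SE 0.26, adjusted p = 0.0122 in edgeR), a call lost in DESeq2 at an adjusted p of 0.0504, where the other alternatives with all libraries went down to 0.00118, and without the second Ubn2 library (0.82, adjusted p = 0.103).

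Cdkn2a, by contrast, gave no call in any comparison. Its values were 12.3 and 10.2 CPM in the controls, 13.0 and 9.98 in Hira-depleted libraries, 10.8 and 13.1 in Ubn1-depleted libraries, and 13.3 and 12.9 CPM in Ubn2-depleted libraries. The Hira- and Ubn1-depleted libraries spanned the controls, and the Ubn2-depleted libraries stood above them. Log2 fold changes were 0.04 (SE 0.17, adjusted p = 0.884 in edgeR), 0.10 (0.16, adjusted p = 0.784) and 0.25 (0.15, adjusted p = 0.204) after Hira, Ubn1 and Ubn2 depletion. With 211 to 428 reads per library, Cdkn2a was better covered than Cdkn2b.

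Rb1 encodes the retinoblastoma protein, the pocket protein that holds E2F, and spans chr14:73183673-73325822 on the minus strand. It had 15.4 and 16.3 CPM in the controls, 32.2 and 28.9 in Hira-depleted libraries, 21.4 and 19.4 in Ubn1-depleted libraries, and 27.2 and 27.4 CPM in Ubn2-depleted libraries. The 4 groups did not overlap, in the order control, Ubn1, Ubn2 and Hira. Rb1 rose 1.92-fold after Hira depletion, a log2 fold change of 0.94 (SE 0.12, adjusted p = 3.32e-06 in edgeR's test), and 1.74-fold after Ubn2 depletion, a log2 fold change of 0.80 (SE 0.11, adjusted p = 1.16e-05). Both calls held in every alternative, with ranges of 0.86 to 1.01 and 0.77 to 0.83 as single libraries were left out.

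After Ubn1 depletion the log2 fold change of Rb1 was 0.37 (SE 0.13, adjusted p = 0.0853 in edgeR). Rb1 was higher in Hira-depleted than in Ubn1-depleted cells by a log2 fold change of 0.60 (SE 0.13, adjusted p = 0.000885 in edgeR). That value sat at the fold threshold and dropped under it with DESeq2's size factors (0.57), with no filter (0.58), in DESeq2 (0.57), and without the first Hira library or the second Ubn1 library (0.52 each). Between Ubn2 and Ubn1 depletion it was 0.43 (adjusted p = 0.0189 in edgeR, within 1.5-fold). That adjusted p ran from 0.00906 to 0.0558 over the alternatives with all libraries, the highest in DESeq2, and was 0.0659 without the second Ubn1 library, 0.104 without the first Ubn2 library and 0.0857 without the second. Between Hira and Ubn2 depletion the log2 fold change was 0.16 (SE 0.10, adjusted p = 0.238).

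Genes on the other strand overlap the exons of Rb1. Lpar6, a lysophosphatidic acid receptor gene, shares 408 bases (6.78% of Rb1 exon length), and Rcbtb2 shares 488 bases (8.11%). Lpar6 had log2 fold changes of 0.91 after Hira and 1.82 after Ubn2 depletion (adjusted p = 0.000605 and 1.44e-08 in edgeR), at 5.06 and 6.23 CPM in control libraries. Rcbtb2 had 0.69 after Hira depletion (adjusted p = 0.000246) and 0.12 after Ubn2 depletion (adjusted p = 0.511). The effect of these overlaps on the value of Rb1 was not tested.

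E2f1, the gene of the activating E2F factor that Rb binds, lies at chr2:154559407-154569892. It had 64.1 and 67.4 CPM in the controls, 51.1 and 43.5 in Hira-depleted libraries, 58.2 and 59.9 in Ubn1-depleted libraries, and 58.3 and 67.9 CPM in Ubn2-depleted libraries. The Hira-depleted libraries stood below all others, and the Ubn2-depleted libraries lay on either side of the controls. After Hira depletion the log2 fold change was -0.48 (SE 0.091, adjusted p = 0.000338 in edgeR's test), within 1.5-fold, and -0.60 and called without the first Hira library. After Ubn1 and Ubn2 depletion it was -0.15 and -0.04 (adjusted p = 0.398 and 0.722 in edgeR). The direct tests gave -0.42 for Hira against Ubn2 and -0.31 for Hira against Ubn1 depletion (adjusted p = 0.00438 and 0.0323 in edgeR), both within 1.5-fold, the latter at -0.21 without the second Hira library (adjusted p = 0.357 in edgeR).

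The wider pathway was read from lists of genes that hold none of the 10. Of 41 G1/S genes, whose products replicate DNA and whose RNA peaks as cells enter S phase, 36 were lower after Hira depletion at the adjusted p and 12 were also called lower, with 0 higher. Their median log2 fold change was -0.52, beside 0.01 over all genes tested. Of all genes, 34.9%, 7.76% and 39.1% passed the adjusted p in either direction after Hira, Ubn1 and Ubn2 depletion. Calls in either direction covered 16.2% of all genes after Hira and 18.3% after Ubn2 depletion. Hells, a chromatin remodeller gene, had -1.28, Dtl, a gene of a replication-coupled ubiquitin ligase, -0.91 and Cdc6, a replication licensing gene, -0.88 (adjusted p = 2.79e-10, 7e-08 and 1.03e-07 in edgeR). After Ubn2 depletion 21 of the 41 were lower and 2 higher at the adjusted p, the called ones being Gmnn (-0.71) and Blm (-0.60), with a median of -0.24. After Ubn1 depletion 2 were lower, with a median of -0.09, but 13 without the first Ubn1 library and 0 without either control library.

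In the direct test of Hira against Ubn2 depletion, 22 of the 41 G1/S genes were lower in Hira-depleted cells at the adjusted p and 0 higher, with a median of -0.27 beside 0.01 over all genes. Of all genes 35.8% passed the adjusted p there in either direction. The count after Hira depletion ranged from 33 to 36 over the alternatives and single libraries left out, and that after Ubn2 depletion from 16 to 21. Exact E2F motifs were present in a promoter of 12 of the 30 G1/S genes with an entry, beside 4.695% of genes averaging at least 1 CPM. Of 51 G2/M genes, 19 were lower and 5 higher after Hira depletion at the adjusted p (median -0.06), with Bub1 at -0.83 and Ect2 at -0.62 called. After Ubn2 depletion 8 were lower and 10 higher (median -0.00), and Lbr had -0.88 and Ube2c 0.71. After Ubn1 depletion 2 were lower and 1 higher. The G2/M counts stand beside 34.9%, 39.1% and 7.76% of all genes tested after Hira, Ubn2 and Ubn1 depletion. Those after Ubn2 and Ubn1 depletion are near that background.

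**Figure D4:**
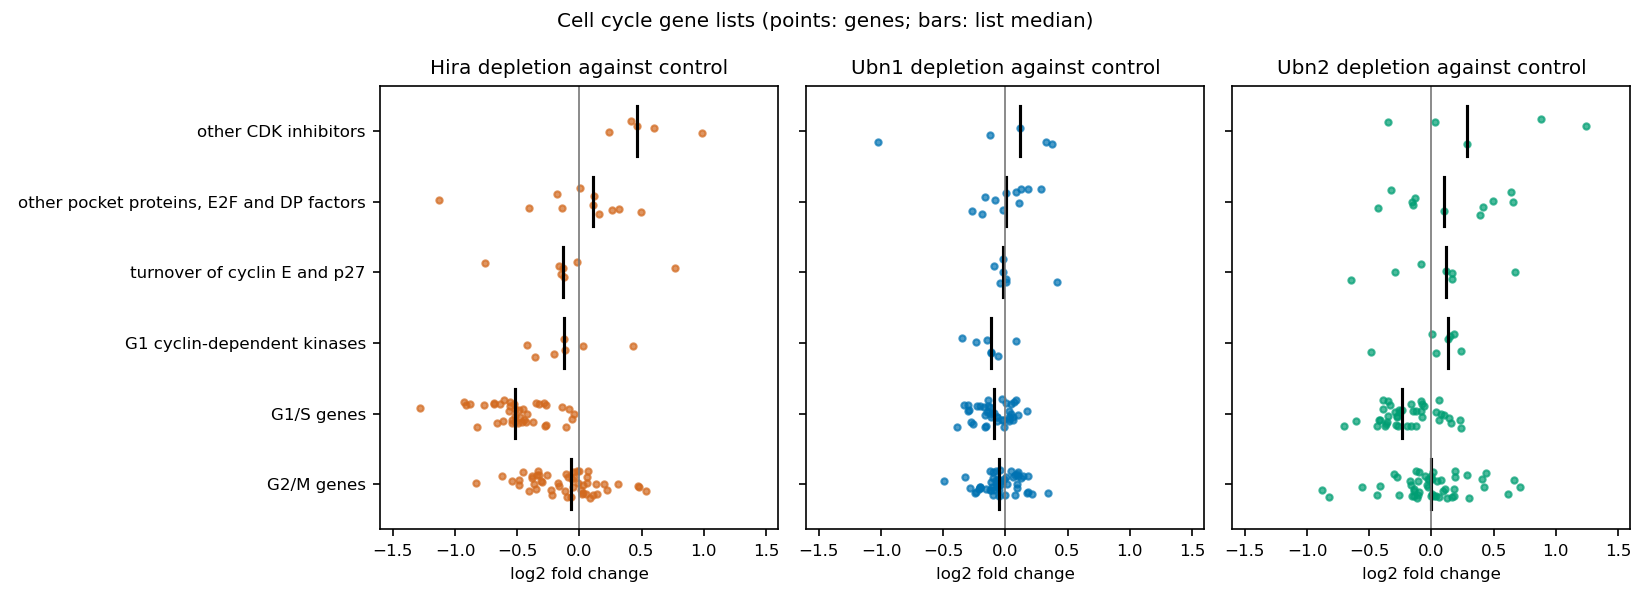
Log2 fold changes of genes in 6 cell cycle lists after each depletion against control. Points are genes and bars are list medians. All 41 G1/S genes lie below 0 after Hira depletion, and 32 of 41 after Ubn2 depletion.

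Among 7 genes of the G1 kinases and their activators, 0 were called by edgeR's test in the 3 comparisons with control. Over all genes tested 16.2%, 3.09% and 18.3% were called after Hira, Ubn1 and Ubn2 depletion. Some of the 7 passed the adjusted p alone. After Hira depletion these were Cdk2 (-0.42) and Cdc25a, a gene of a phosphatase that activates CDK2 (-0.36), both lower, and Cdk6 (0.43). Mnat1, an assembly factor gene of the CDK-activating kinase, was lower after Ubn1 (-0.35) and Ubn2 depletion (-0.49), and Cdk7 (0.24) and Cdk4 (0.18) were higher after Ubn2 depletion. Over all genes tested 34.9%, 7.76% and 39.1% passed after Hira, Ubn1 and Ubn2 depletion, so the kinase genes passing are near that background in number. Other inhibitors differed by depletion. Cdkn1a, the p21 gene induced by p53, had 65.4 and 64.6 CPM in control libraries and 151 and 152 after Ubn2 depletion, a 2.36-fold rise (adjusted p = 1.94e-11 in edgeR). It was 1.33-fold higher after Hira depletion (adjusted p = 0.000934, within 1.5-fold). Cdkn1c, the imprinted p57 gene, was the one inhibitor called lower against control, at a log2 fold change of -1.02 after Ubn1 depletion (adjusted p = 4.63e-05). Its group means were 18.7 CPM in controls and 25.9, 9.14 and 14.6 CPM after Hira, Ubn1 and Ubn2 depletion. The direct comparisons of Cdkn1c were all called, at 1.51 for Hira against Ubn1, 0.83 for Hira against Ubn2 and 0.68 for Ubn2 against Ubn1. Cdkn3, a kinase-associated phosphatase gene, was called higher after Ubn2 depletion (0.88).

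Among 11 other pocket protein, E2F and DP genes, the p107 gene Rbl1 was called lower after Hira depletion at a log2 fold change of -1.13 (adjusted p = 5.75e-07 in edgeR), opposite to Rb1. At the adjusted p alone 2 were higher and 2 lower after Hira depletion, and 5 higher and 2 lower after Ubn2 depletion. Over all genes tested 34.9% and 39.1% passed, so the count after Hira depletion is near the background. The p130 gene Rbl2 (0.65) and E2f3 (0.64) were called higher after Ubn2 depletion (18.3% of all genes were called), and 0 were called after Ubn1 depletion (3.09%). Of 7 genes that degrade cyclin E and p27, Skp2, whose product marks p27 for degradation, was called lower after Hira (-0.76) and Ubn2 depletion (-0.65). Fbxw7, whose product marks cyclin E, was called higher in both (0.77 and 0.67). Cdkn1b RNA was called higher after Hira depletion and was lower after Ubn2 depletion at the adjusted p (-0.32, within 1.5-fold). All of these values are RNA, the p27 protein is not part of these data, and a link was not tested.

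Of 8 Polycomb genes tied to the Cdkn2a and Cdkn2b locus, Bmi1 was called higher in all 3 depletions, at log2 fold changes of 0.84 after Hira, 0.81 after Ubn1 and 1.70 after Ubn2 depletion (adjusted p = 0.00277, 0.0113 and 6.86e-08 in edgeR). Cbx8 was called higher after Hira (1.14) and Ubn2 depletion (1.35), at under 2 CPM. None of the 8 was called lower in these comparisons, but at the adjusted p alone the PRC2 genes Eed (-0.49), Suz12 (-0.39) and Ezh2 (-0.33) were lower after Hira depletion, as was Ezh2 after Ubn2 depletion (-0.23). The PRC1 genes Rnf2 after Hira (0.27) and Ring1 after Ubn2 depletion (0.43) were higher. The median of the 8 was -0.12 after Hira, 0.09 after Ubn1 and 0.13 after Ubn2 depletion. In the Myc family of 7 genes, Mycn was called higher after Hira (0.69) and Ubn2 depletion (0.61), as was Mxd1 (0.62 and 0.61), and Mycl was called lower after Ubn2 depletion (-0.61). After Ubn1 depletion 0 Myc family genes were called by edgeR's test. For both lists, the share of all genes called in either direction was 16.2% after Hira, 3.09% after Ubn1 and 18.3% after Ubn2 depletion. At the adjusted p alone it was 34.9%, 7.76% and 39.1%.

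Markers of other cell types also moved. Of all genes tested, 16.2%, 3.09% and 18.3% were called in either direction after Hira, Ubn1 and Ubn2 depletion. The summed level of 8 mesoderm and heart muscle genes was 14.5 to 14.9 CPM in control libraries and 160 to 253 CPM after Ubn2 depletion, where 4 of 7 tested were called higher and 2 lower. The summed ESC markers were 7093 to 7478 CPM in controls and lower in all 3 depletions. They were 6341 to 6443 CPM after Hira, 6429 to 6512 after Ubn1 and 6080 to 6204 CPM after Ubn2 depletion. The single markers moved in both directions, with 4 higher and 6 lower in fitted change after Hira depletion. After Ubn1 depletion 5 were higher and 5 lower, and after Ubn2 depletion 4 and 6. Group means of Sox2, Nanog and Esrrb stood above the control mean in all 3 depletions. Of the 10 ESC markers, 2, Tdgf1 and Dppa5a, were called lower after Ubn2 depletion, near the share of all genes called there, and 0 after Hira or Ubn1 depletion. Neural genes, with Dcx at 0 in every library, summed to 128 to 137 CPM in controls and 273 to 282 CPM after Hira depletion, where 4 of 6 tested were called higher. They summed to 167 to 188 CPM after Ubn1 depletion, with 1 of 6 called higher. After Ubn2 depletion the sum was 131 to 136 CPM, with 2 of 6 called higher and 1 lower. Trophoblast genes summed to 75.6 to 78.5 CPM in controls and 115 to 142 CPM after Hira depletion, with 4 of 7 called higher and 1 lower. Their sum was 68.6 to 75.3 CPM after Ubn1 depletion, with 1 of 5 called lower, and 60.6 to 64.6 CPM after Ubn2 depletion, with 3 of 6 called lower. Primitive endoderm sums lay between 64.5 and 84.0 CPM in all groups, with Sox17 called higher after Hira depletion (1.18) and Gata6 (-1.10) and Pdgfra (-0.79) called lower after Ubn1 depletion.

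Fibroblast sums lay between 31.4 and 45.4 CPM in all groups, although single genes moved in both directions. After Ubn2 depletion 3 of 6 tested were called higher and 2 lower, beside 18.3% of all genes tested in either direction. Col3a1, a collagen gene of connective tissue, had 0 CPM in both controls and 6.72 and 4.10 CPM there, and Postn had 0 CPM in the other 6 libraries and 1.33 and 0.708 CPM there. Col1a2 was higher by 2.85 on the log2 scale, while Pdgfrb (-1.48) and Thy1 (-0.65) were called lower. Dcn and Lum had 0 CPM in all libraries but the Ubn2-depleted ones, where they stayed under 1 CPM. After Hira depletion 1 of 3 tested was called higher and 1 lower, the latter being Pdgfrb (-0.90), beside 16.2% of all genes tested. The part of cells of these types in the values of the 10 genes was not tested.

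Genes whose log2 CPM across the 8 libraries was most like that of Ccnd1, among 16065 genes averaging at least 1 CPM, were Gm27390 (Pearson r = 0.995), Pelp1 (0.988), Nol12 (0.988), Apobr (0.987) and Oaz2 (0.981). Those most like Cdkn2b were Cdca5 (0.985), Slco2a1 (0.979), Ahr (0.978), Il20rb (0.975) and Zfp830 (0.975). Within the group, Cdkn2b was most like Rb1 (r = 0.861) and Ccnd1 was most like Ccnd2 (r = 0.857), and Cdkn1b ran opposite to Ccne1 (r = -0.824). These values describe 8 libraries that fall into 4 groups and share their scaling, and they carry no test.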

How the data were processed

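Per the labels, reads of the 8 mouse ESC libraries were trimmed with Trim Galore, aligned to GRCm38 with STAR and counted on genes with featureCounts, with versions and strand setting not given in the sources used here. The authors deposited the counts as read, unnormalized, in 3 tables with 55418 genes, each with 1 knockdown beside the same controls (0 control values differed between tables). Counts are whole reads on a gene's exons. How reads in a stretch shared by overlapping genes were handled is not stated, so such reads may be counted for either gene or left out.

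Each pair of groups was fitted with edgeR 4.0.16 in R 4.3.3 (TMM factors of 0.960 to 1.05, filterByExpr, quasi-likelihood test, Benjamini-Hochberg adjustment over all genes tested), with calls at a fold over 1.5 and an adjusted p under 0.05. The standard error is the log2 fold change divided by the square root of F. Replicates correlated at 0.994 to 0.995 in log2 CPM across genes, which are not independent, and differed by more than counting noise (chi-square per degree of freedom of 6.10 to 13.3). Precision for the 10 genes rests on 28 to 9470 reads per library.

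Exon lengths and positions came from GENCODE M21 (GRCm38), in which 55233 symbols matched 1 gene, 108 several and 77 none. Promoters are RefSeq, GRCm38.p6, 250 bases before to 50 after a start. The genes and lists were chosen with earlier results of these data known. Named list genes are, per list and comparison, up to 3 called genes with the smallest adjusted p, lists of at most 8 genes may be named whole, and likeness was taken for the gene with the smallest adjusted p and that with the largest called change. Alternatives were DESeq2 1.42.0, its size factors in edgeR, all 8 libraries fitted at once, a block for replicate number, both together, no filter, a minimum of 10 counts in each library of a fit, adjusted p alone, and each library left out. Their use on the G1/S count was added after seeing the data. The fits were tested on simulated counts. Figures used Python 3.11.15, numpy 2.4.6, pandas 2.3.3 and matplotlib 3.10.9.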

Additional observations from a re-analysis of the deposited data

How the results depend on the processing

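Among refits of the 60 fitted changes of the 10 genes, 616 kept direction and side of the thresholds, 16 lost a call, 7 gained one and 21 changed sign. No value that changed sign had passed the adjusted p with all libraries, though without the second Hira library Ccnd2 was called lower after Hira depletion (-0.66) and for Hira against Ubn1 depletion (-0.79). With all 8 libraries in one fit, Ccnd3 after Hira depletion was 0.0014. As single libraries were left out, log2 fold changes ranged after Hira depletion from -0.66 to 0.33 for Ccnd2, -0.12 to 0.076 for Ccnd3 and -0.17 to 0.20 for Cdkn2a. After Ubn1 depletion they ranged from -0.015 to 0.12 for Ccnd1, -0.16 to 0.55 for Ccnd2, -0.20 to 0.16 for Ccne2 and -0.051 to 0.25 for Cdkn2a, and after Ubn2 depletion from -0.16 to 0.068 for E2f1. For Hira against Ubn1 depletion they ranged from -0.79 to 0.20 for Ccnd2 and -0.25 to 0.12 for Cdkn2a, and for Ubn2 against Ubn1 depletion from -0.033 to 0.044 for Ccnd3 and -0.0059 to 0.21 for E2f1.

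At the adjusted p alone, 7 of the 10 genes passed after Hira depletion, 5 for Hira against Ubn2 and 5 for Hira against Ubn1 depletion, and over all genes 6644, 1426 and 7118 passed after Hira, Ubn1 and Ubn2 depletion and 6641, 4582 and 3019 for Hira against Ubn2, Hira against Ubn1 and Ubn2 against Ubn1 depletion. DESeq2 called 295 genes after Ubn1 depletion and 1007 for Ubn2 against Ubn1 depletion, where edgeR called 568 and 1584. For Hira against Ubn1 depletion, 1 of the 10 genes was called with DESeq2's size factors, with no filter and in DESeq2, and 1 to 3 as single libraries were left out. After Ubn1 depletion 350 to 688 genes were called as single libraries were left out, 350 of them without the first control library. The cause of these differences was not tested. A library left alone in its group was assumed to vary like the other group. Over the alternatives and single libraries left out, G1/S genes lower after Ubn1 depletion numbered 0 to 13.

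Deviations of same-numbered libraries correlated at only -0.0986 to 0.0988 over 19264 genes, so no pairing by replicate number was visible over the genes as a whole. A pairing limited to few genes would not show in such a correlation. With the replicate block, Ccnd1 after Ubn2 depletion stayed called, and Rb1 after Ubn1 depletion had an adjusted p of 0.0417, within 1.5-fold. After Ubn1 depletion 7 G1/S genes were lower at the adjusted p with that block, beside 2 in the main fit. Cdkn2b, at 28 reads in 1 control library, is the gene whose precision depth limits most.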
